A study of Mus musculus with 6 samples.

Results

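The data described here are the read counts of 41 genes of the loop of Henle, distal convoluted tubule and collecting duct, taken by symbol from a list of names, out of 46603 genes in the deposited counts. By the segment each is best known for, 8 are genes of the thick ascending limb (TAL), 10 of the distal convoluted tubule (DCT), 8 of principal cells, 7 of intercalated cells and 8 of several segments. CD11B+ cells, which carry the leukocyte integrin alpha M chain, had been separated by MACS (magnetic beads) from digested kidneys of 6 male mice aged 10 to 12 weeks, 3 days after both renal pedicles were clamped for 28 minutes (ischemia/reperfusion-induced AKI, IRI-AKI). The 3 PTEC DN RAR mice were PEPCK CRE+ and carried Rosa26-LSL-RARaT403X, a Cre-activated dominant negative retinoic acid receptor, and the 3 Cre– control mice carried the same allele but were PEPCK CRE-. PEPCK-Cre acts in proximal tubular epithelial cells (PTECs), the allele was bred to homozygosity, each mouse gave 1 polyA-selected library, and uninjured mice were not analysed here. The comparison asks how transcripts best known from tubule segments past the proximal tubule differed between the genotypes within these CD11B+ preparations. Some of the 41, among them Wnk1, Slc8a1, Gata3 and Atp1b1, are also expressed in other cells.

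The nephron segments past the proximal tubule set the final salt, water, calcium, magnesium and acid content of the urine. The TAL takes up sodium chloride without water and secretes uromodulin, the DCT takes up sodium chloride through a thiazide-sensitive transporter and recovers calcium and magnesium, and the collecting duct is a mosaic of principal cells, which take up sodium and water under aldosterone and vasopressin, and intercalated cells, which secrete acid or base. In bulk RNA, fewer cells of a type and less RNA per cell cannot be told apart.

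Promoters of 5 of the genes are shown, with Umod and Slc12a1 as defining genes of the TAL. Slc12a3 and Trpv5 are the DCT genes set against each other below, and Atp6v1b1 is an intercalated cell gene whose window holds a pair of the motifs. Each runs 5′ to 3′ on the strand of the gene, from 250 bases before to 50 after the RefSeq start site (GRCm38.p6), and capitals mark a match, on either strand, to the letters GTTAAT read by HNF1 factors, to the forkhead letters GTAAACA, or to the letters AGATAA read by GATA factors. The windows are chr7:119479213-119479512 (minus strand) for Umod, chr2:125152350-125152649 (plus strand) for Slc12a1, chr8:94328958-94329257 (plus strand) for Slc12a3, chr6:41680674-41680973 (minus strand) for Trpv5 and chr6:83742767-83743066 (plus strand) for Atp6v1b1.
Umod: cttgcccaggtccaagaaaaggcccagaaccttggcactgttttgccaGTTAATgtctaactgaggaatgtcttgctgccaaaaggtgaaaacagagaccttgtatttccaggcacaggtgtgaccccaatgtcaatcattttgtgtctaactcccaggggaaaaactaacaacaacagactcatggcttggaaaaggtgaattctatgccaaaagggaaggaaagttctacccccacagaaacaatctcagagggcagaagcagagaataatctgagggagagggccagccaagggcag
Slc12a1: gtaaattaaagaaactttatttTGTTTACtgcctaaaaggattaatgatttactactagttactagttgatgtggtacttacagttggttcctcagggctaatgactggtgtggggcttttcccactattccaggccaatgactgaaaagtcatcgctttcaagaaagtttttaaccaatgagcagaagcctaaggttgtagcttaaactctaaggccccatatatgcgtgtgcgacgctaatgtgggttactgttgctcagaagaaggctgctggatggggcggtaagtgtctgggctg
Slc12a3: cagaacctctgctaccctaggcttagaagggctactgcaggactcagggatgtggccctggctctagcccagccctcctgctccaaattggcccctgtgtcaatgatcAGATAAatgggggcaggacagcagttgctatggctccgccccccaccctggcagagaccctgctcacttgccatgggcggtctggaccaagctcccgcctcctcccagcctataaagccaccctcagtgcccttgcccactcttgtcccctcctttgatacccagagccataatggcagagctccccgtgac
Trpv5: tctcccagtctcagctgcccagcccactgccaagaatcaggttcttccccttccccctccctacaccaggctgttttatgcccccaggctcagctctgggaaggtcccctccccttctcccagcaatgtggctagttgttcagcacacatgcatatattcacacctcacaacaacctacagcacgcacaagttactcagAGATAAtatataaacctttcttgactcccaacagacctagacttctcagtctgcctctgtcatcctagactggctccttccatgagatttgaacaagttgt
Atp6v1b1: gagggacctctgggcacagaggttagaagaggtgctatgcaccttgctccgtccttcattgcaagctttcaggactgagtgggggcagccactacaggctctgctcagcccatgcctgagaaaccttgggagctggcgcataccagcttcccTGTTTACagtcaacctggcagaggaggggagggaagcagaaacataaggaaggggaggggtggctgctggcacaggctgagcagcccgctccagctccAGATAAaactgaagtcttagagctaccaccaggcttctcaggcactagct

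Of the 41 genes, 31 had a promoter in the RefSeq windows outside chromosome 18, 36 promoters in all. The HNF1 letters stood in 2 of the 36 (5.56%), in Umod and Atp6v1g3, against 7.1% of 32851 promoters of the genome. The forkhead letters stood in 4 of the 36 (11.1%), in Slc12a1, Egf, Avpr2 and Atp6v1b1, against 3.65% of all promoters. Those of GATA factors stood in 4 of the 36 (11.1%), in Slc12a3, Trpv5, Slc8a1 and Atp6v1b1, against 11.2% of all promoters. A match is a description of these letters, not of a bound site. Among the DCT genes the AGATAA letters were thus found in Slc12a3, which was higher in PTEC DN RAR libraries, and in Trpv5 and Slc8a1, which did not pass the test. No promoter in the windows was found for Sostdc1, Scnn1a, Hsd11b2, Bsnd, Slc4a1, Fxyd2, Cdh16, Ppp1r1b and Calb1. Slc4a9 lies on chromosome 18, whose windows were not searched for the 41 genes, while the 32851 promoters were counted without leaving that chromosome out.

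Counts summed over genes ran from 29318041 to 40741507 per Cre– control library and from 42113139 to 46517005 per PTEC DN RAR library, so that 3 counts correspond to 0.0645 to 0.102 CPM (counts relative to library size, which is scaled by TMM in the values below). Itgam, the gene for CD11B, measured 1737, 1959 and 1995 CPM in Cre– controls against 1366, 1303 and 980 CPM in PTEC DN RAR libraries (log2 fold change -0.64, adjusted p = 0.00818 in edgeR's quasi-likelihood fit). Rara, the mouse gene behind the transgene, measured 45.4, 35.3 and 45.1 CPM against 30.8, 31.5 and 37.5 CPM and did not pass the test (log2 fold change -0.33, adjusted p = 0.0628 by edgeR), and the counts do not separate the transgene from it. Transcripts of 37 mitochondrial genes took 5.03% to 8.77% of Cre– control counts, against 10.38% to 12.08% of those from PTEC DN RAR mice. The part of these differences in the values below was not tested. Of 15440 genes that passed the filter on low counts, 23.6% were higher and 17.1% were lower in PTEC DN RAR mice (adjusted p under 0.05), with a median log2 fold change of 0.04. Scaling on 26 pan-leukocyte genes in place of TMM raised that median to 0.26 and changed the split of all genes from 3640 higher and 2636 lower to 5145 and 720.

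All 41 genes passed the filter, with at least 21 counts in every library. In PTEC DN RAR mice 33 were higher, 0 were lower and 8 did not pass the test, against the 23.6% of all genes that were higher, and the median log2 fold change of the 41 was 1.83. In 32 of the 41 genes every PTEC DN RAR library lay above every Cre– control library, as it did in 29.2% of all genes tested. Together the 41 genes took 0.337% to 0.386% of Cre– control counts, against 0.918% to 1.58% of those from PTEC DN RAR mice. By segment, the median log2 fold change was 2.37 for the TAL, 2.26 for the DCT, 1.84 for genes of several segments, 1.67 for intercalated cells and 0.85 for principal cells, and these medians were not tested against each other. Leaving out each mouse in turn, changing the filter or the test, or scaling on library size, DESeq2 size factors or pan-leukocyte genes gave between 30 and 35 of the 41 higher and 0 lower, while scaling on other kidney cells, given below, gave other counts.

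**Figure D1:**
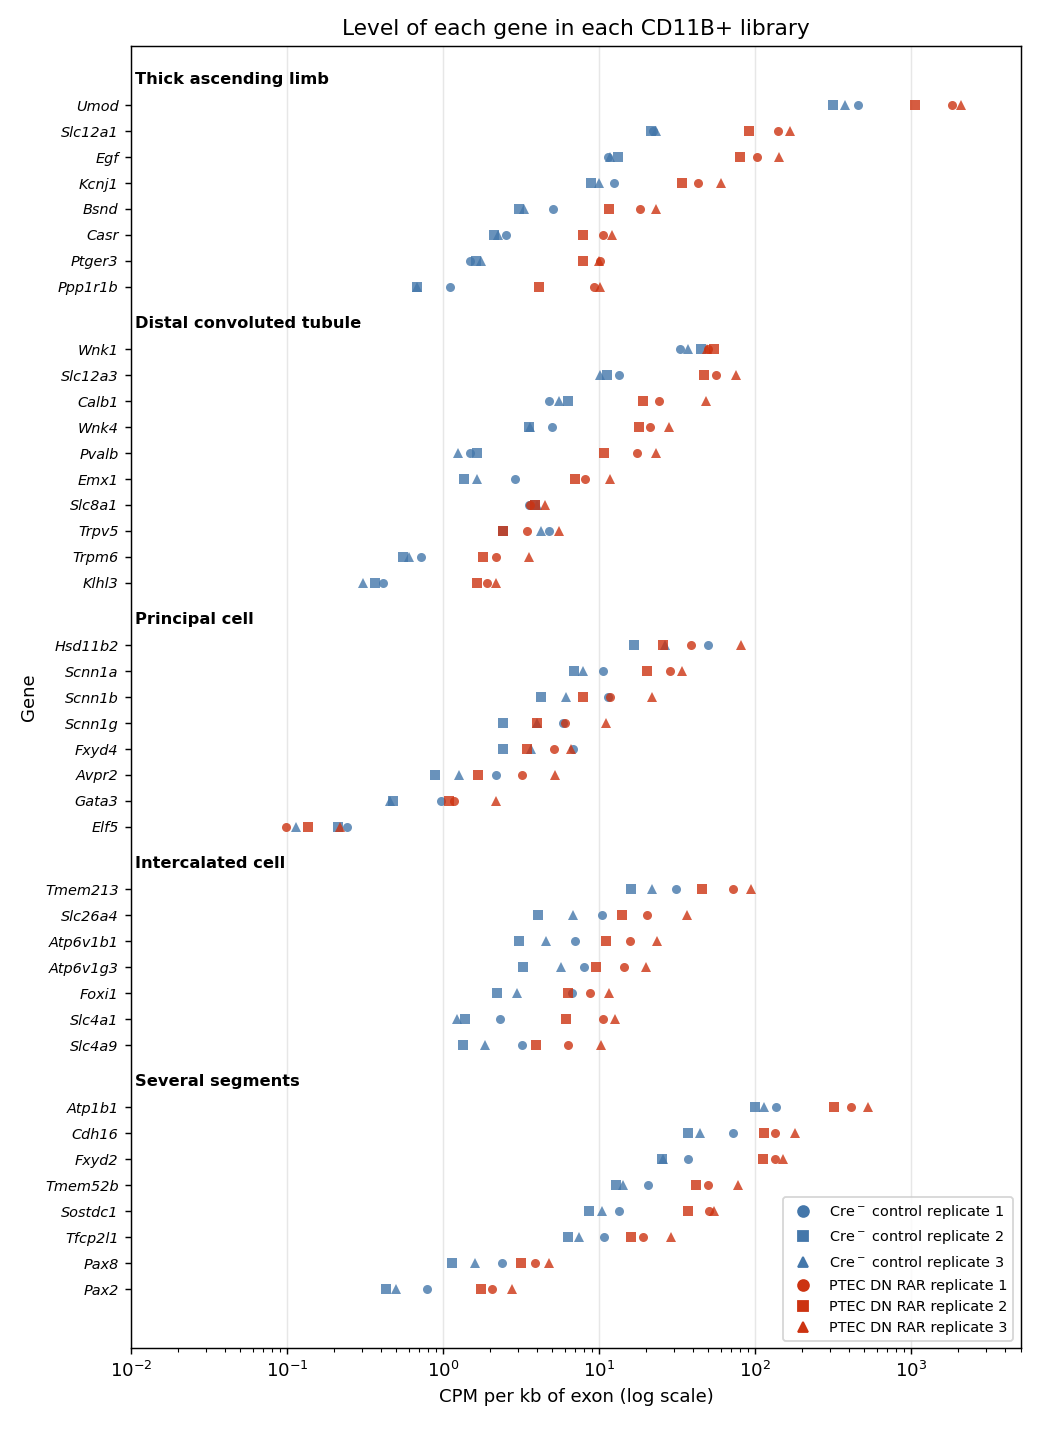
The level of each of the 41 genes in each library, in CPM per kb of exon on a log axis, for the 3 Cre– control (blue) and 3 PTEC DN RAR (red) libraries, with circles, squares and triangles for replicates 1, 2 and 3 and genes ordered by mean level within each segment. The red symbols lie to the right of the blue ones in every TAL gene, while they overlap in Trpv5, Slc8a1, Foxi1 and most principal cell genes.

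All 8 TAL genes were higher in PTEC DN RAR mice, and none of their values overlapped between genotypes. The most abundant of the 41 per kb of exon was Umod (ENSMUSG00000030963, chromosome 7 of GRCm38 from 119462711 to 119479282), which encodes uromodulin, the most plentiful protein of normal urine. It measured 1263, 865 and 1036 CPM in Cre– controls against 5002, 2894 and 5708 CPM in PTEC DN RAR libraries. The lowest PTEC DN RAR library was above the highest Cre– control, and the difference was 2.10 on the log2 scale (standard error 0.26, adjusted p = 0.000631 in the edgeR fit). Slc12a1, whose product NKCC2 is the sodium-potassium-chloride cotransporter blocked by loop diuretics, measured 127, 124 and 132 CPM in Cre– controls. It measured 804, 528 and 958 CPM in PTEC DN RAR libraries (log2 fold change 2.58, standard error 0.20, adjusted p = 0.000181). The Cre– controls thus lay within 1.07-fold of each other, while the PTEC DN RAR libraries spread over 1.82-fold with all 3 above them.

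Egf, the gene for the epidermal growth factor precursor that the TAL and early DCT shed into urine, measured 129, 149 and 131 CPM in Cre– controls against 1155, 899 and 1588 CPM in PTEC DN RAR libraries. Its mean was 8.90-fold higher (log2 fold change 3.15, standard error 0.20, adjusted p = 0.000132 by edgeR). The largest TAL difference was that of Ppp1r1b, which encodes DARPP-32, a protein phosphatase inhibitor, at 3.23, 1.98 and 2.00 CPM in Cre– controls against 27.0, 12.0 and 29.5 CPM in PTEC DN RAR libraries (log2 fold change 3.24, standard error 0.36). The remaining 4 rose by 2.14 to 2.53 on the log2 scale: Kcnj1 and Bsnd, which encode the potassium channel ROMK and the chloride channel subunit barttin that keep salt uptake running, Casr, the calcium-sensing receptor, and Ptger3, a prostaglandin E2 receptor. The smallest adjusted p among the 41 genes was that of Ptger3 (9.3e-05 by edgeR). PTEC DN RAR replicate 2 was the lowest of its group in 8 of 8 TAL genes and replicate 3 the highest in 7 of 8. Reads from Umod, Ppp1r1b and Atp1b1 could include those of overlapping genes on the opposite strand, which share 19.5%, 15.7% and 18.7% of their exon length, since whether the counting used strand is not given in the sources used here.

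The DCT genes divided into 8 that were higher and 2 that did not pass the test. Slc12a3 (ENSMUSG00000031766, at 94329201 to 94366214 on chromosome 8 of GRCm38), the gene for the thiazide-sensitive sodium-chloride cotransporter NCC that defines the segment, measured 149, 125 and 113 CPM in Cre– controls against 622, 518 and 832 CPM in PTEC DN RAR libraries. Every PTEC DN RAR library was above every control, with a difference of 2.35 on the log2 scale (standard error 0.19, adjusted p = 0.000181 by edgeR). Pvalb, the calcium-binding parvalbumin of the early DCT, had the largest difference of all 41 genes. It measured 1.54, 1.71 and 1.30 CPM in Cre– controls against 18.0, 11.1 and 23.9 CPM in PTEC DN RAR libraries, a mean 11.7-fold higher (log2 fold change 3.54, standard error 0.29, adjusted p = 0.000201). Calb1, the calcium-binding calbindin-D28k of the late DCT and connecting tubule, measured 23.2, 30.6 and 26.5 CPM against 117, 92.5 and 232 CPM (log2 fold change 2.46, standard error 0.32). Its PTEC DN RAR libraries all lay above the controls, with replicate 3 well above the other two.

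The kinase Wnk4 and its ubiquitin ligase adaptor Klhl3, which act on NCC, rose by 2.46 and 2.39 on the log2 scale. The magnesium channel gene Trpm6 rose by 2.00 and the homeobox gene Emx1 by 2.17. Wnk1, a kinase of the same pathway that is expressed in most cell types, rose least. It measured 746, 1027 and 841 CPM in Cre– controls against 1135, 1236 and 1121 CPM in PTEC DN RAR libraries (log2 fold change 0.42, standard error 0.13, adjusted p = 0.0318 by edgeR). The genotypes did not overlap in Wnk1, but its call was lost when any 1 library other than Cre– control replicate 2 was left out (adjusted p from 0.067 to 0.14).

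Both DCT genes that did not pass the test encode calcium transporters. Trpv5, the apical calcium channel of the late DCT and connecting tubule, measured 15.5, 7.78 and 13.7 CPM in Cre– controls against 11.2, 7.85 and 17.9 CPM in PTEC DN RAR libraries. The genotypes overlapped, with a difference of -0.001 on the log2 scale (standard error 0.33, adjusted p = 0.999 by edgeR), and its sign turned under 3 other scalings or filters. Slc8a1, the basolateral sodium-calcium exchanger NCX1, which is also expressed in muscle and other tissues, measured 66.3, 72.9 and 74.4 CPM against 67.8, 72.8 and 84.7 CPM. These values overlapped too (log2 fold change 0.08, standard error 0.10, adjusted p = 0.573). By contrast, all 3 PTEC DN RAR values of Calb1, the third calcium gene of the late DCT, lay above the controls.

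Of the principal cell genes 2 of 8 were higher, a share near the 23.6% of all genes. Scnn1a, the alpha subunit of the epithelial sodium channel ENaC, measured 43.3, 28.5 and 32.4 CPM in Cre– controls against 118, 83.4 and 139 CPM in PTEC DN RAR libraries. The genotypes did not overlap (log2 fold change 1.71, standard error 0.21, adjusted p = 0.000659 by edgeR). The beta subunit gene Scnn1b measured 29.7, 11.1 and 16.1 CPM against 30.6, 20.7 and 56.8 CPM, and the gamma subunit gene Scnn1g 17.4, 7.25 and 11.9 CPM against 18.0, 12.0 and 32.9 CPM. Both overlapped between genotypes and did not pass the test (log2 fold changes 0.92 and 0.78, standard errors 0.42 and 0.39, adjusted p = 0.108 and 0.144). A difference between the subunits in their response was not tested, but the ratios of alpha to beta and of alpha to gamma within each library are given below.

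Gata3, a transcription factor of principal cells and of T cells, measured 3.82, 1.88 and 1.81 CPM in Cre– controls against 4.68, 4.34 and 8.71 CPM in PTEC DN RAR libraries. It rose by 1.23 on the log2 scale (standard error 0.37, adjusted p = 0.0274 by edgeR), a call that was lost without Cre– control replicate 2, Cre– control replicate 3 or PTEC DN RAR replicate 3 (adjusted p = 0.09, 0.105 and 0.103, with a log2 fold change of 0.80 without the last). The T cell and ILC list, which does not hold Gata3, had 4 of 8 genes higher and 2 lower, against 23.6% and 17.1% of all genes, and its part in the value of Gata3 was not tested. Hsd11b2, the enzyme that shields the mineralocorticoid receptor from glucocorticoids, was the most abundant principal cell gene per kb of exon, at 91.6, 30.6 and 48.7 CPM against 71.3, 47.0 and 150 CPM. Cre– control replicate 1 lay above 2 of the 3 PTEC DN RAR libraries, and the gene did not pass the test (log2 fold change 0.65, standard error 0.46, adjusted p = 0.295).

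Avpr2, the vasopressin V2 receptor, measured 6.25, 2.55 and 3.61 CPM in Cre– controls against 9.15, 4.81 and 15.1 CPM in PTEC DN RAR libraries. Its log2 fold change of 1.22 (standard error 0.43) did not pass the threshold (adjusted p = 0.0512 by edgeR). It passed with DESeq2 (adjusted p = 0.0114), without a filter on low counts (0.0123), with at least 10 counts in every library (0.0488), with library size in place of TMM (0.0450), with pan-leukocyte scaling (0.0274), and without Cre– control replicate 1 (0.0252) or PTEC DN RAR replicate 2 (0.0160). It did not pass with voom or DESeq2 size factors or without any 1 of the other 4 libraries (0.0595 to 0.202). Its value is uncertain because 81.3% of its exon length overlaps Arhgap4 on the opposite strand. Fxyd4, a regulator of the sodium pump, measured 13.2, 4.70 and 7.10 CPM against 9.96, 6.76 and 12.8 CPM, and Elf5, an ETS family transcription factor, 1.41, 1.24 and 0.665 CPM against 0.573, 0.801 and 1.27 CPM. Neither passed the test (log2 fold changes 0.24 and -0.32, adjusted p = 0.628 and 0.543). The count of principal cell genes higher was 4 without Cre– control replicate 1 and 1 without Cre– control replicate 2, Cre– control replicate 3 or PTEC DN RAR replicate 3. The median of the group was 1.28 without Cre– control replicate 1, 0.54 without Cre– control replicate 2 and 0.32 without PTEC DN RAR replicate 3.

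All 7 intercalated cell genes were higher in PTEC DN RAR mice. Slc26a4, the chloride-bicarbonate exchanger pendrin of base-secreting cells, measured 32.4, 12.7 and 21.2 CPM in Cre– controls against 62.8, 43.3 and 113 CPM in PTEC DN RAR libraries (log2 fold change 1.73, standard error 0.40, adjusted p = 0.00946 by edgeR). Atp6v1b1, the B1 subunit of the proton pump whose mutation causes renal tubular acidosis, measured 30.7, 13.5 and 19.8 CPM against 68.9, 48.4 and 103 CPM (log2 fold change 1.78). Tmem213, the most abundant of the group per kb of exon, measured 19.7, 10.1 and 13.7 CPM against 45.0, 28.6 and 59.2 CPM (log2 fold change 1.61). In these 3 genes the lowest PTEC DN RAR library was above the highest Cre– control.

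The largest difference was that of Slc4a1 (ENSMUSG00000006574, chromosome 11 of GRCm38 from 102348824 to 102366203), the anion exchanger of acid-secreting cells, at 11.2, 6.78 and 5.99 CPM in Cre– controls against 51.7, 29.8 and 62.0 CPM in PTEC DN RAR libraries. The mean was 5.99-fold higher, with no overlap (log2 fold change 2.57, standard error 0.31, adjusted p = 0.000616 by edgeR). Slc4a1 also encodes band 3 of red cells. Of 7 erythroid genes in the counts 1, Epor, passed the filter on low counts and was higher, at 3.74, 2.58 and 2.60 CPM against 6.55, 7.49 and 7.88 CPM (log2 fold change 1.29, adjusted p = 0.00161 by edgeR). The other 6 measured at most 0.615 CPM in any library. Slc4a9 and Atp6v1g3, a further anion exchanger and proton pump subunit, rose by 1.67 and 1.36 on the log2 scale. The smallest difference was that of Foxi1, the transcription factor required for intercalated cells, at 15.8, 5.20 and 6.97 CPM against 20.5, 14.7 and 27.1 CPM. Here Cre– control replicate 1 lay above PTEC DN RAR replicate 2, and the call (log2 fold change 1.15, standard error 0.39, adjusted p = 0.0431) was lost without Cre– control replicate 2, Cre– control replicate 3, PTEC DN RAR replicate 1 or PTEC DN RAR replicate 3 (adjusted p from 0.0884 to 0.147), with DESeq2 (0.0801) and with DESeq2 size factors in edgeR (0.0504).

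The 8 genes found in several segments were all higher, with no overlap between genotypes. Atp1b1, the beta subunit of the sodium pump, measured 419, 306 and 350 CPM in Cre– controls against 1260, 986 and 1615 CPM in PTEC DN RAR libraries (log2 fold change 1.85, standard error 0.19, adjusted p = 0.000354 by edgeR). Fxyd2, the gamma subunit of the same pump, had the largest difference of the group, at 147, 102 and 102 CPM against 532, 449 and 605 CPM (log2 fold change 2.18, standard error 0.18). The pump is found along the whole nephron, the proximal tubule included. Cdh16, the kidney-specific cadherin, measured 272, 141 and 168 CPM against 503, 434 and 679 CPM (log2 fold change 1.48, standard error 0.25, adjusted p = 0.00278). Pax8, a transcription factor of the kidney epithelium, had the smallest difference, at 14.4, 6.91 and 9.60 CPM against 23.4, 19.0 and 28.7 CPM (log2 fold change 1.20, standard error 0.26, adjusted p = 0.00724). Tfcp2l1, Tmem52b, Pax2 and Sostdc1, which include transcription factors of the collecting duct and of the whole kidney epithelium and a secreted BMP antagonist, rose by 1.39 to 2.14 on the log2 scale.

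**Figure D2:**
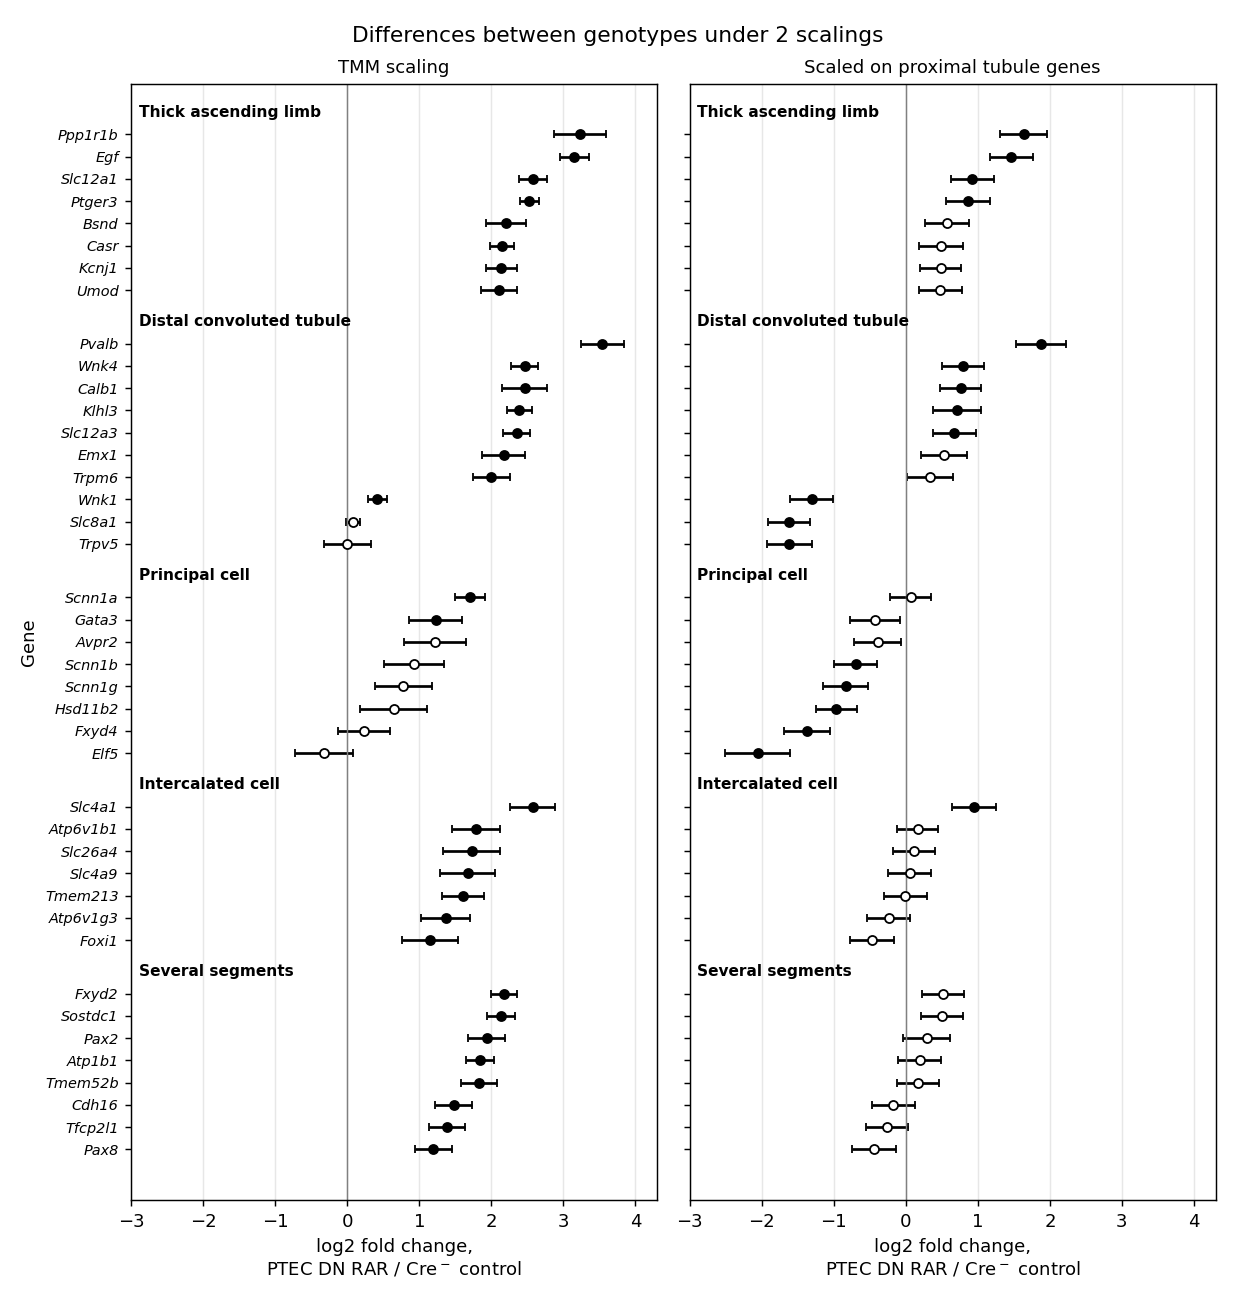
Log2 fold changes of the 41 genes, PTEC DN RAR over Cre– control (3 mice each), with standard errors as bars, scaled by TMM on the left and on 20 proximal tubule genes on the right; filled circles have an adjusted p under 0.05. On the left 33 filled circles lie above 0, and on the right 10 lie above it and 8 below it, the latter Trpv5, Slc8a1, Wnk1 and 5 principal cell genes.

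The spread between mice of a genotype differed by segment. The median coefficient of variation among Cre– controls was 13.2% for the TAL, 14.6% for the DCT, 27.1% for genes of several segments, 42.0% for intercalated and 45.8% for principal cell genes. Among PTEC DN RAR libraries the order was another, with 29.0% for the TAL, 26.0% for the DCT, 23.7% for genes of several segments, 36.2% for intercalated and 46.2% for principal cell genes. Cre– control replicate 1 was the highest control in 8 of 8 principal cell, 7 of 7 intercalated cell and 8 of 8 genes of several segments, and replicate 2 the lowest in 6 of 8, 6 of 7 and 8 of 8. Among PTEC DN RAR libraries, replicate 3 was the highest in all of these genes and in 9 of 10 DCT genes. Collecting duct transcripts varied by a median of 2.43-fold (principal cell) and 2.41-fold (intercalated cell) from the lowest to the highest Cre– control, against 1.30-fold for TAL genes. In PTEC DN RAR libraries the same medians were 2.48-fold, 2.12-fold and 1.80-fold. Summed over their genes, the TAL measured 1598, 1197 and 1364 CPM in Cre– controls against 7288, 4559 and 8661 CPM in PTEC DN RAR libraries, and the principal cell genes 207, 87.8 and 122 CPM against 262, 180 and 416 CPM. The sums of the TAL did not overlap between genotypes and those of principal cells did. The DCT sums were 1036, 1290 and 1095 CPM against 2108, 2053 and 2495 CPM, of which Wnk1 made up the larger part in every Cre– control.

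Since PEPCK-Cre acts in proximal tubule cells, the 41 genes were also compared with 20 proximal tubule genes within the same libraries. All 20 were higher in PTEC DN RAR mice with TMM scaling, against 23.6% of all genes. Their median log2 fold change was 1.77, from 0.77 for Slc13a3 to 2.59 for Slc22a8. Their sums were 975 to 1280 CPM in Cre– controls, against 3155 to 5029 CPM in PTEC DN RAR libraries. PTEC DN RAR replicate 2 had the highest proximal tubule sum and the lowest TAL, principal cell and intercalated cell sums of its group. When libraries were scaled so that the mean log2 CPM of these 20 genes was equal in all, all genes together had a median log2 fold change of -1.66, 0.758% of genes were higher and 81.3% were lower. Of the 41 genes 10 were higher, 8 were lower and 23 did not pass the test on this scale.

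The 10 genes that exceeded the proximal tubule genes were 4 of the TAL, 5 of the DCT and 1 of intercalated cells. They were Ppp1r1b, Egf, Slc12a1 and Ptger3, with relative log2 fold changes of 1.64, 1.47, 0.93 and 0.86, then Pvalb at 1.88, Wnk4 at 0.80, Calb1 at 0.76, Klhl3 at 0.71 and Slc12a3 at 0.67, and Slc4a1 at 0.95. Umod, at 0.48 (standard error 0.30, adjusted p = 0.13 by edgeR), did not pass. The 8 that fell short of them were Wnk1, Trpv5 and Slc8a1 of the DCT, at -1.31, -1.62 and -1.63, and the principal cell genes Scnn1b, Scnn1g, Hsd11b2, Fxyd4 and Elf5, from -0.70 for Scnn1b to -2.06 for Elf5. No gene of several segments passed in either direction. Scnn1a, at 0.07 (standard error 0.29, adjusted p = 0.839), did not pass. The count of genes higher was 18 without PTEC DN RAR replicate 2, 5 without Cre– control replicate 3 and 4 without PTEC DN RAR replicate 3, with the calls of Calb1, Klhl3, Slc12a3, Slc4a1 and Wnk4 lost in both of the latter and that of Slc12a1 in the last. The calls of Ptger3 and Klhl3 were lost without Cre– control replicate 1 (as were those of Calb1 and Slc12a3) or PTEC DN RAR replicate 1, those of Calb1 and Slc4a1 with DESeq2, and that of Klhl3 with voom, without a filter on low counts and with summed proximal tubule counts. With endothelial and podocyte genes as the reference 22 were higher, the 10 among them, and 6 lower. With the replicate number as a block 3 were higher, Egf, Ppp1r1b and Pvalb, and 7 lower. The count lower was 5 without Cre– control replicate 1 or PTEC DN RAR replicate 2. Egf, Ppp1r1b and Pvalb stayed higher, and Trpv5, Slc8a1, Fxyd4 and Elf5 lower, under the 8 other settings tried and with each mouse left out.

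**Figure D3:**
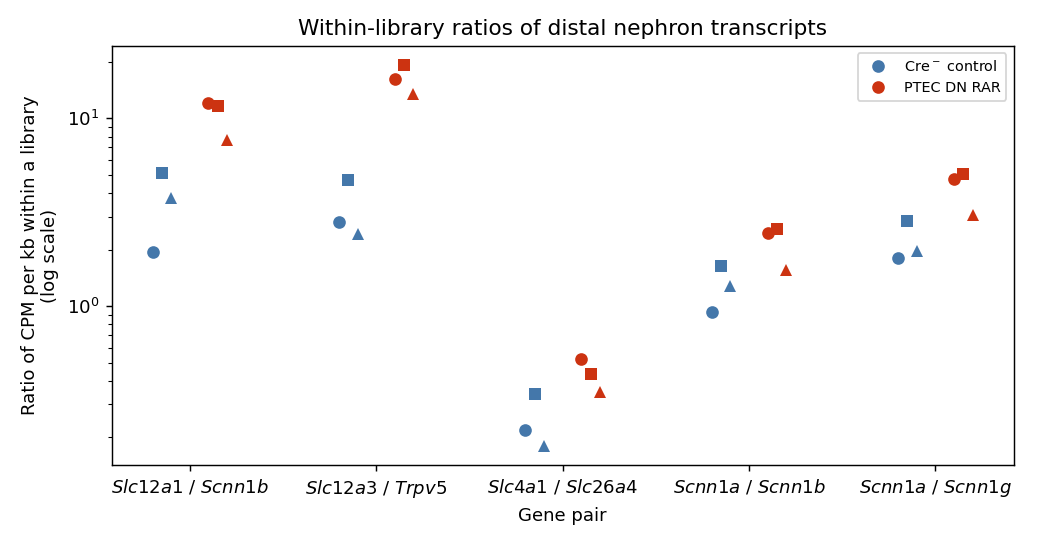
Ratios of CPM per kb of exon between pairs of genes within each library, on a log axis, for 3 Cre– control (blue) and 3 PTEC DN RAR (red) mice, with circles, squares and triangles for replicates 1, 2 and 3. The first 3 pairs and Scnn1a to Scnn1g separate the genotypes, while Scnn1a to Scnn1b overlaps between Cre– control replicate 2 at 1.63 and PTEC DN RAR replicate 3 at 1.56.

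Ratios between 2 genes of a library do not depend on its scaling. The pairs were chosen after the values had been seen and are given without a test, per kb of exon. Slc12a1 to Scnn1b, a TAL gene against a principal cell gene, was 1.95, 5.09 and 3.75 in Cre– controls against 12.0, 11.6 and 7.71 in PTEC DN RAR libraries. Within the DCT, Slc12a3 to Trpv5 was 2.79, 4.69 and 2.41 against 16.2, 19.2 and 13.5. The sodium-chloride cotransporter gene thus stood further above the calcium channel gene in all 3 PTEC DN RAR libraries. Among intercalated cell genes, Slc4a1 of acid-secreting cells to Slc26a4 of base-secreting cells was 0.220, 0.341 and 0.180 against 0.523, 0.437 and 0.347, with the genotypes separated only narrowly. Scnn1a to Scnn1b, 2 subunits of 1 channel, was 0.928, 1.63 and 1.28 against 2.46, 2.56 and 1.56, and overlapped. Scnn1a to Scnn1g of the same channel was 1.80, 2.85 and 1.97 against 4.75, 5.03 and 3.06, and did not overlap.

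Other genes of the same segments, from lists that hold none of the 41, were counted in the same fit, in which 23.6% of all genes were higher and 17.1% lower. Of 13 other TAL genes tested, 12 were higher and 1 was lower (median log2 fold change 1.99), from Oxsr1, a kinase expressed in most cells, at -0.31 to Kcnt1 at 4.33. Of 14 other DCT genes 7 were higher and 1 was lower (median 0.50). The 7 that were not higher were Cul3, Sgk1, Nedd4l, Atp2b1, Cnnm4, Slc41a3 and Fgf13, with log2 fold changes from -0.34 for Cul3 to 0.29 for Nedd4l. The part of other cells in these 7 was not tested, so the median of 0.50 is not shown to be that of DCT cells. The largest log2 fold changes were those of Abca13 at 2.28 and S100g, the calcium-binding calbindin-D9k, at 2.09. Of 12 other principal cell genes 7 were higher and 1 was lower (median 1.11), and Aqp2, the vasopressin-regulated water channel, did not pass the test at a mean of 57.6 CPM in Cre– controls, against 89.5 CPM in PTEC DN RAR libraries (log2 fold change 0.63, adjusted p = 0.149 by edgeR). Of 14 other intercalated cell genes 12 were higher and 0 were lower (median 1.65), from Atp6v0d2 at 0.55, which did not pass, to Insrr at 2.27.

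**Figure D4:**
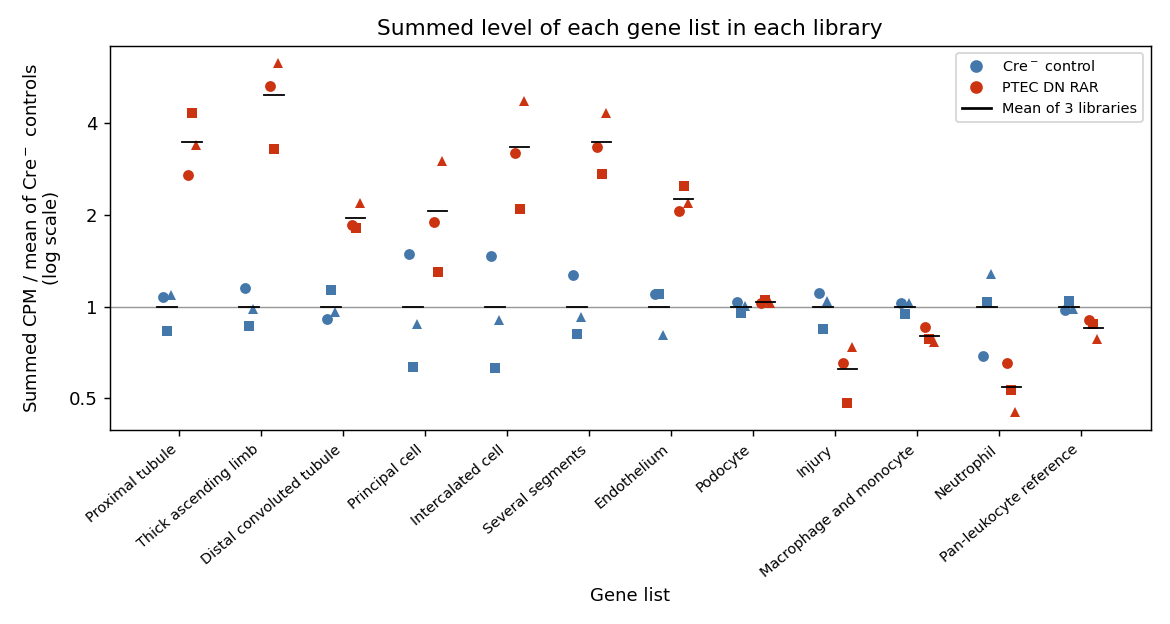
Summed CPM of each gene list in each library, divided by the mean of the 3 Cre– controls, on a log axis, with Cre– controls in blue, PTEC DN RAR libraries in red, circles, squares and triangles for replicates 1, 2 and 3 and black lines for means of 3. The TAL sum was 4.93-fold higher on average in PTEC DN RAR mice, the principal cell sum 2.06-fold and the DCT sum 1.95-fold. Wnk1, whose mean was 1.34-fold higher, made up the larger part of the DCT sum in every Cre– control. The macrophage and monocyte sums of all 3 PTEC DN RAR libraries lay below those of the controls.

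Markers of other cells moved with the genotype as well, and their part in the differences above was not tested. Their counts stand against 23.6% of all genes higher and 17.1% lower. All 12 endothelial genes were higher (median log2 fold change 1.43, summed level 172 to 234 CPM in Cre– controls, against 439 to 530 CPM in PTEC DN RAR libraries), as were 6 of 10 podocyte genes with 1 lower (median 1.20, sums of 519 to 564 and 556 to 572 CPM) and 7 of 11 genes of stroma with 0 lower (median 1.02, sums of 118 to 146 and 204 to 284 CPM). The 26 pan-leukocyte genes summed to 16200 to 17260 CPM in Cre– controls, against 12970 to 14990 CPM in PTEC DN RAR libraries, with 9 lower and 0 higher. Of 14 macrophage and monocyte genes 7 were lower and 0 higher (sums of 30100 to 32590 and 24360 to 27270 CPM), and of 9 neutrophil genes 4 were lower and 0 higher. Of 11 tubular injury genes 4 were lower, 1, Vcam1, was higher and 6 did not pass the test (median -0.42). The 4 lower were Lcn2, Spp1, Cd44 and Vim, and the 6 were Havcr1, Krt8, Krt18, Krt20, Sox9 and Clu. Whether the reads of the 4 came from tubule cells or from leukocytes was not tested. Lcn2, which injured distal tubules and neutrophils express, measured 96.4, 63.9 and 65.8 CPM in Cre– controls against 45.7, 27.4 and 35.7 CPM in PTEC DN RAR libraries (log2 fold change -1.06, standard error 0.21, adjusted p = 0.00517 by edgeR). Havcr1, the gene for Kim1 of injured proximal tubules, measured 6.25, 9.73 and 13.8 CPM against 6.52, 10.5 and 7.35 CPM. It overlapped between genotypes and did not pass the test (log2 fold change -0.29, adjusted p = 0.457).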

How the data were processed

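RNA-Seq of CD11B+ kidney cells from 3 PTEC DN RAR and 3 Cre– control mice was used, 1 library per mouse. The authors deposited raw read counts per Ensembl gene without normalization. The submitters' processing notes name STAR 2.5.0a, HTSeq 0.6.1, edgeR, limma and GRCm38, without their roles. The annotation release and whether the counting used strand are not given in the sources used here. The deposited summary lines, which name no gene and were left out of library sizes and tests, held 46.4% to 50.62% of each library, mostly alignments to more than 1 place (42.93% to 47.75%), which lowers the counts of genes that have close copies. Of 46612 gene lines, 9 repeats were collapsed, and 46091 of 46603 identifiers had coordinates and exon lengths in GENCODE M21 (GRCm38). Counts of libraries of a genotype differed by a chi-square per degree of freedom of at least 27.1, so all 6 were kept as separate samples.

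The quasi-likelihood test of edgeR 4.0.16 (glmQLFit, then glmQLFTest; R 4.3.3) was run on counts after filterByExpr and TMM scaling, and p values of 15440 genes were adjusted by Benjamini-Hochberg, with a threshold of 0.05. A log2 fold change is PTEC DN RAR minus Cre– control, and its standard error is its absolute value over the root of F. In a separate fit each library was scaled so that the mean log2 CPM (prior count 2) of 20 proximal tubule genes was equal. Levels of different genes were compared only as CPM per kb of exon. Same-numbered mice of the genotypes correlated in their deviations by -0.01, 0.21 and 0.03, so replicate numbers were not treated as pairs. P values cover the spread between mice. The tests were checked on simulated data. The alternatives were DESeq2 1.42.0, limma 3.58.1 (voom), other filters, scalings and reference genes, a replicate block and leaving out each mouse. Promoters were read from RefSeq windows. Python 3.11, pandas 2.3.3, numpy 2.4.6 and matplotlib 3.10.9 were used for tables and figures.

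The 41 genes and all lists were chosen with earlier results of these data known. Values in every library are given for the 3 genes of each segment with the highest mean CPM per kb, those with the largest and smallest log2 fold change, and every gene that did not pass the test, with Itgam, Havcr1, Lcn2 and Rara as checks. Gata3, Slc4a9 and the other genes named beyond this rule were named after their values were seen. Of the list genes 1 was not matched. Protein sequences were not used here.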

Additional observations from a re-analysis of the deposited data

How the results depend on the processing

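The 41 genes were 30 to 35 higher and 0 lower in the comparison of genotypes with other filters and tests, library size, DESeq2 or pan-leukocyte scaling, the replicate block and each mouse left out, and TAL genes and genes of several segments were 8 of 8 higher under each. Scaling on pan-leukocyte genes gave 720 of all genes lower. Without a filter on low counts 4 principal cell genes were higher (Scnn1b and Avpr2 added), and leaving out each mouse gave 1 to 4. The DCT median ranged from 1.91 to 2.41 with each mouse left out. Trpv5 changed sign with at least 10 counts in every library (0.024), with library size in place of TMM (0.013) and with pan-leukocyte scaling (0.25), and ranged from -0.42 to 0.24 with each mouse left out. With each mouse left out Slc8a1 ranged from -0.061 (without PTEC DN RAR replicate 3) to 0.15, and Fxyd4 from -0.085 (without Cre– control replicate 2) to 0.74, with -0.043 without PTEC DN RAR replicate 3.

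Relative to proximal tubule genes, 10 of the 41 were higher and 8 lower. With endothelial and podocyte genes as the reference 22 were higher, DESeq2 left 5 lower, and with other collecting duct genes as the reference, chosen after seeing the data, 12 were higher and 4 lower. With each mouse left out 4 to 18 were higher and 5 to 8 lower. All genes higher were 117 in the report, 458 with endothelial and podocyte genes, 73 with at least 10 counts in every library, 226 with other collecting duct genes, and 78 to 208 with each mouse left out. With the replicate block 34 of the 41 were higher in the comparison of genotypes (Avpr2 added, adjusted p = 0.027 by edgeR), while relative to proximal tubule genes 3 of the 41 (Egf, Ppp1r1b and Pvalb) and 72 of all genes were higher. The replicate numbers are not shown to pair the mice, and the cause of these changes was not tested. A principal cell gene that did not pass the test is not shown to be unchanged.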
